A study of Mus musculus with 10 samples.

Results

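The respiratory chain of the inner mitochondrial membrane passes electrons from NADH and succinate to oxygen through complexes I to IV and pumps protons, and complex V, the ATP synthase, uses the proton gradient to make ATP. Most subunits are encoded in the nucleus, whereas a small set is encoded by mitochondrial DNA, so that all complexes except complex II are built from both genomes. Mouse ES cells are known to rely strongly on glycolysis while they keep a functional respiratory chain. The nuclear-encoded subunits were taken here as all genes whose symbol starts with Nduf (complex I, without Ndufa4l2 and the Ndufaf assembly factors), Sdha to Sdhd (complex II), Uqcr (complex III), Cox4i, Cox5, Cox6, Cox7 or Cox8 (complex IV) or Atp5 (complex V). This gave 86 of the 22713 gene IDs, of which 38 belonged to complex I, 4 to complex II, 8 to complex III, 18 to complex IV and 18 to complex V. The rule went by name, so it also took in Atp5s and Atp5sl, which are not subunits of the ATP synthase, and 1 pseudogene, Atp5l-ps1. Ndufa4 is counted by its name with complex I, although its protein is known as a component of complex IV.

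mRNA-sequencing covered 8 libraries of mouse ES cells. Pontinf/f; CreER ES cells, which carry floxed alleles of the ATPase Pontin (gene symbol Ruvbl1) and a Cre recombinase that OHT activates, gave 1 untreated library (WT) and, following OHT, 1 library at day 3 (OHT 3D) and 1 at day 4 (OHT 4D). ZHBTc4 ES cells, in which tetracycline (Tc) shuts off Oct4, gave 1 library at day 2 of Tc (Tc 2D). The same cells without Tc, 4 days after infection with pLKO lentivirus, were sequenced in 2 libraries for a control shRNA and 2 for one that targets linc1253, a long non-coding RNA. ZHBTc4 cells also gave 1 ChIP-sequencing library with an anti-Pontin antibody and 1 for GFP as the background. WT and Tc 2D are of different lines, so in the comparison of Tc 2D with WT the loss of Oct4 and the cell line cannot be told apart. The reads on genes numbered between 17187595 and 37951742 per mRNA library. Ruvbl1 was at 198 CPM (read counts per 1e6 reads, normalized) in WT and at 33.3 and 50.9 CPM on days 3 and 4 of OHT, and at Tc 2D it was also below WT at 85.0 CPM (log2-fold-change of -1.21). Pou5f1, which encodes Oct4, was at 301 CPM in WT, 642 and 582 in the controls and 21.1 at Tc 2D. The 10 ES cell markers summed to between 3491 and 3804 CPM in the 3 Pontinf/f; CreER libraries and between 5990 and 6733 CPM in the 4 shRNA libraries, and to 484 CPM at Tc 2D. The shRNA libraries were normalized separately from the other mRNA libraries, so these CPM are not on 1 scale. With all 8 libraries on 1 scale, the log2-fold-change of Pou5f1 in the controls against WT was 0.83.

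At least 1 of the 4 libraries of the first table was above 1 CPM for 79 of the 86 respiratory chain genes. The others were the tissue-restricted forms Cox4i2, Cox6a2, Cox7b2, Cox8b and Cox8c, Atp5l-ps1 and an additional Ndufb8 ID that was at 0 in all 8 libraries. Cox8b, for example, had 0 reads in WT, so that up to 3 reads or 0.134 CPM remain possible. In the shRNA libraries 81 passed, because Cox4i2 (1.23 to 2.15 CPM) and Cox7b2 (1.05 to 1.68 CPM) were above the limit there. In WT the CPM of the 79 genes lay between 1.48 and 1240 with a median of 74.9, against a median of 22.9 over all 13449 genes that passed. These CPM are not divided by length. The members' transcripts were short: their median length was 758 bases against 2722 bases for all genes that passed.

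To rank single genes by level, CPM were divided by the length in kilobases of the transcript with the longest coding sequence. On this scale the catalytic beta subunit of the ATP synthase, Atp5b, was highest in WT at 647 CPM per kb, and the ubiquitous cytochrome c oxidase subunit Cox4i1 led complex IV at 411 CPM per kb. Ndufa4 led complex I at 210, Uqcrh, the hinge protein of complex III, led its complex at 167, and the flavoprotein subunit Sdha led complex II at 107 CPM per kb. The lowest were Ndufb2 at 3.24, Sdhc, a membrane anchor of succinate dehydrogenase, at 26.6, the Rieske iron-sulphur protein Uqcrfs1 at 71.5, the muscle and heart form Cox7a1 at 14.0 and Atp5s at 6.14 CPM per kb. The forms known from all tissues were thus far above their tissue-restricted counterparts. Cox6a1 stood at 190.3 and Cox6a2 at 0.204 CPM per kb in WT, and Cox8a at 204 CPM per kb while Cox8b and Cox8c had no read there. Cox6b2, known as the testis form, was an exception at 61.9 CPM per kb in WT, beside 209.5 for Cox6b1. The 3 genes for the c subunit of the ATP synthase, which encode the same mature protein, were at 130.4 (Atp5g1), 236 (Atp5g2) and 201 CPM per kb (Atp5g3).

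Promoters of the members are shown for genes with several binding motifs of factors known to control nuclear respiratory genes. RefSeq promoter windows (GRCm38.p6, from 250 bases before to 50 after the start) were matched to 65 of the 79 expressed members and to 9513 expressed genes, and both strands were searched. The core GCGCANGCG of the NRF1 motif was found in 20 of the 65 members' promoters (30.8%) and in 14.8% of those of all expressed genes. The ETS motif CCGGAAG, which GABPA binds, was in 16 (24.6%, against 18.9%), the YY1 motif AAGATGGC in 9 (13.8%, against 4.92%) and the motif of the estrogen-related receptors (ERR) AAGGTCA in 8 (12.3%, against 3.97%). At least 1 of these motifs was found in 58.5% of members' and 36.1% of all expressed genes' promoters. A match is a run of letters, not a measured binding site. In the sequences below, the 120 bases before the start are given 5′ to 3′ on the gene's strand, and capitals mark the motif letters, which do not overlap in these windows. Sdha and Ndufb4 are shown because they hold NRF1 motifs in series, Sdhd because an NRF1 and a reverse-strand ETS motif stand beside each other, and Atp5j because it holds a YY1 and an ETS motif. Their positions are chr13:74350241-74350360 (Sdha), chr9:50603850-50603969 (Sdhd), chr16:37654369-37654488 (Ndufb4) and chr16:84834977-84835096 (Atp5j), all on the minus strand.
Sdha: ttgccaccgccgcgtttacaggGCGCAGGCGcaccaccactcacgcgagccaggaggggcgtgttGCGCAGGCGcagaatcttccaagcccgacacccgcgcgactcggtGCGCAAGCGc
Ndufb4: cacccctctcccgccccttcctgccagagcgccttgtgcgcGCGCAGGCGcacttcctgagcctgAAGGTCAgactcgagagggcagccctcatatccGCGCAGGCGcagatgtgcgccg
Sdhd: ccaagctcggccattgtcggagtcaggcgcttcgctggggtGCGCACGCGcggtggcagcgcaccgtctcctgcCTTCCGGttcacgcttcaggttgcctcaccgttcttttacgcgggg
Atp5j: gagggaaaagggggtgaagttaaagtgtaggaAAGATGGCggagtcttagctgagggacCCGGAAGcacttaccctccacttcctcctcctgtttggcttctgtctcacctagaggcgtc

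To ask whether Pontin is found at these promoters, ChIP-sequencing reads were summed over 2.5 kb before and 500 b after each start site in NCBIM37, the build of the files. The median log2 ratio of Pontin to GFP reads, scaled by library size, was 0.48 over 79 members (quartiles -0.05 and 0.87), 0.44 over 13228 other expressed genes and 0.11 over 7872 genes that were not expressed. Over this window the members' promoters were close to those of other expressed genes, and over 1 kb either side of the start the medians were 0.71 and 0.67. For genes averaging 50 CPM or more the medians over these windows were 0.51 and 0.76, above those of the members. The ratio of summed reads was higher for members than for other expressed genes in 12 of 20 bins of 100 bases within 1 kb of the start, among them the 9 from -500 to 400, and lower in the others, a difference that was not tested. By complex the medians were 0.48 (I), 0.08 (II), 0.58 (III), 0.71 (IV) and 0.52 (V), and the members reached from -0.92 for Ndufa3 to 1.86 for Ndufb11, which had 69 Pontin and 8 GFP reads. Uqcrfs1 had 94 Pontin and 13 GFP reads (1.61) and Cox7b stood at 1.46, whereas Cox7a2 stood at -0.24 and Sdhd at -0.20. After scaling by the median ratio over promoters the members' median was 0.14, and over promoters with at least 20 GFP reads it was 0.27 for members and 0.29 for other expressed genes. There was 1 library per antibody, so no test was made. The libraries held 40729076 Pontin and 17185883 GFP reads, and a typical member had 93 Pontin and 31 GFP reads.

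The question of the first comparison was how ES cells change after loss of Pontin. WT was untreated, and no cells with OHT and Cre but without floxed Pontin were sequenced. Loss of Pontin, OHT with active Cre and time in culture therefore cannot be told apart. At OHT 3D the respiratory chain genes were slightly lower than in WT, and at OHT 4D slightly higher. Their summed share of the reads on genes was 1.12% in WT and came to 1.01% and 1.32% on days 3 and 4. The exact 95% binomial intervals of the shares, which cover counting error only, did not overlap (1.115% to 1.125%, 1.009% to 1.018% and 1.318% to 1.328%). At OHT 3D, 72 of 79 were lower than in WT, with a median log2-fold-change of -0.19 against -0.02 over all genes. At OHT 4D, 74 of 79 were higher, with a median of 0.29 against 0.00 over all genes. Changes were small: the limit for a call was 0.58 in either direction on log2(CPM + 1), and at OHT 3D 0 members were called higher and 2 lower, where 6.01% of all genes were called higher and 5.88% lower. At OHT 4D 0 were called higher and 1 lower, where 6.48% of all genes were called higher and 8.89% lower. Each time point had 1 library, so no test was made.

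The members called at OHT 3D were Ndufa6, an accessory subunit of complex I, and Atp5s. Ndufa6 was at 70.9 CPM in WT and at 43.8 and 67.5 CPM on days 3 and 4, log2-fold-changes of -0.68 (95% counting interval -0.79 to -0.57) and -0.07. Atp5s was at 9.12, 4.39 and 4.60 CPM, lower at both time points (log2-fold-changes of -0.91 and -0.85). Atp5s was the only member called at OHT 4D. Nearest to the limit without a call lay Cox6b2 at OHT 3D (-0.57) and Atp5j2, a subunit of the membrane part of the ATP synthase, at OHT 4D (0.576). Atp5j2 was at 66.7 CPM in WT and 100.01 at OHT 4D. The c subunit gene Atp5g1 followed with 77.7 and 114 CPM (0.55).

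By complex, the median log2-fold-changes at OHT 3D were -0.21 (complex I), -0.28 (II), -0.13 (III), -0.19 (IV) and -0.13 (V), and at OHT 4D they were 0.27, 0.13, 0.30, 0.28 and 0.31. In all, 67 of 79 members were below WT at OHT 3D and above it at OHT 4D (84.8%, against 20.8% of all genes), and 78 were higher at OHT 4D than at OHT 3D (98.7%, against 53.2%). The same WT library enters both comparisons. Neither share was computed for other genes of similar transcript length, and the median transcript of all genes was longer (2722 bases against 758). Other genes of 500 to 700 bases averaging 20 CPM or more had medians of -0.15 on day 3 and 0.29 on day 4. Of 75 mitochondrial ribosomal protein genes, day 3 of OHT had 54 below WT, while 71 stood above WT by day 4. Below WT at OHT 3D and above it at OHT 4D were 30 of 37 in complex I, 2 of 4 in II, 8 of 8 in III, 12 of 13 in IV and 15 of 17 in V. Sdha was at 310 CPM in WT and at 287 and 298 CPM on days 3 and 4, so it was below WT at both times. Sdhb, the iron-sulphur subunit, was at 85.6, 61.0 and 97.0 CPM and Sdhc at 84.3, 61.6 and 89.8 CPM, both low at OHT 3D only. Sdhd, the other membrane anchor, was at 126, 129 and 164 CPM and thus highest at OHT 4D.

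**Figure D1:**
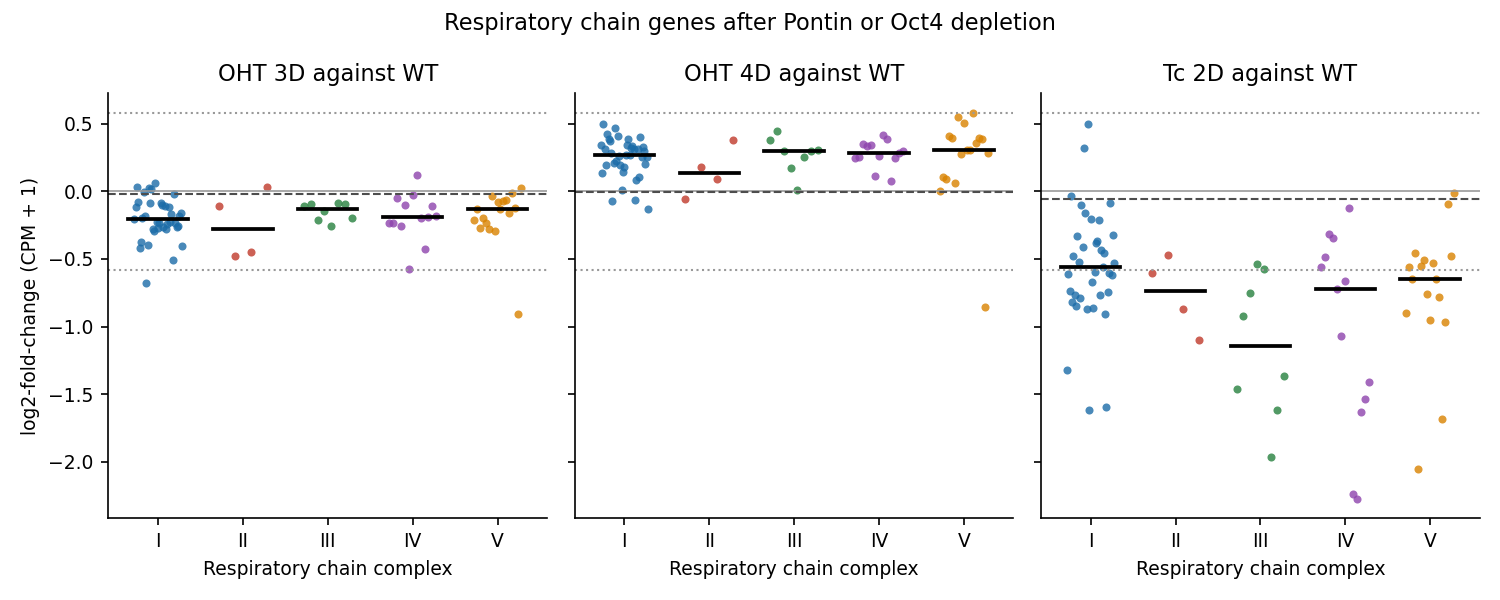
Log2-fold-change against WT on log2(CPM + 1) (vertical axis) of each of 79 respiratory chain genes (points) by complex (horizontal axis) at OHT 3D, OHT 4D and Tc 2D, with 1 library per condition. Black bars are medians of a complex, dashed lines the median over all genes and dotted lines the limits of 0.58. Points lie mostly below 0 at OHT 3D (72 of 79), above 0 at OHT 4D (74) and below 0 at Tc 2D (77).

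Other genes with short transcripts moved in the same directions. Among non-member genes averaging 20 CPM or more, the median log2-fold-change of transcripts under 500 bases (36 genes) was -0.18 at OHT 3D and 0.30 at OHT 4D, and that of transcripts of 2500 to 5000 bases (3032 genes) was 0.00 and -0.10. Relative to the median of non-member genes in the same band of transcript length, the members' median was -0.06 at OHT 3D and 0.04 at OHT 4D, where 49 of 79 and 23 of 79 lay below their band. The part of transcript length in the changes was not tested. Markers of other cells also moved: 9 of 10 fibroblast markers were called higher at each time point, with medians of 2.33 and 2.63. Fn1, the remaining one, was at 794 CPM in WT and at 642 and 556 CPM on days 3 and 4. The list summed to 825, 882 and 863 CPM with Fn1 and to 31.6, 240.4 and 307 CPM without it. Of 7 trophectoderm markers 5 were called higher and Eomes lower at OHT 3D, and 6 were called higher at OHT 4D (sums of 51.7, 129 and 299 CPM; Elf5 was at 0 in WT), and of 8 primitive endoderm markers 4 and 7 (sums of 197, 261 and 305 CPM). Their part in the result was not tested. In bulk libraries fewer cells of a type and less RNA per cell cannot be told apart.

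**Figure D2:**
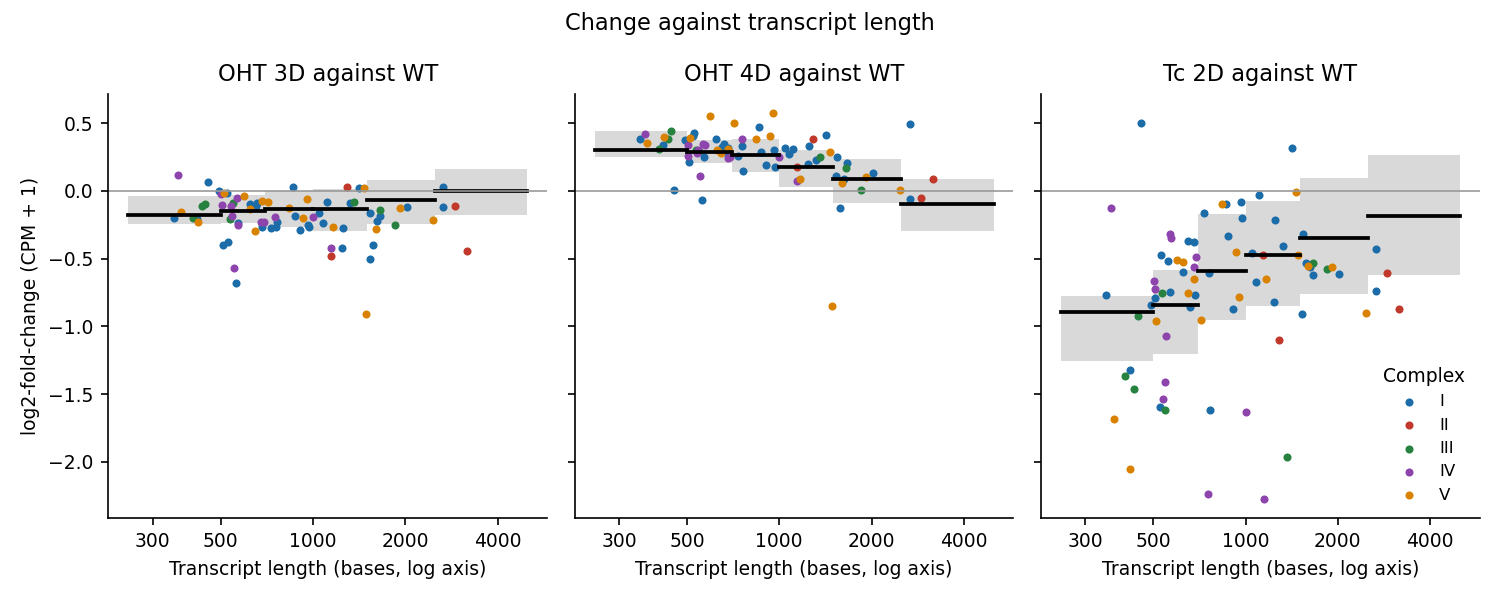
Log2-fold-change against WT on log2(CPM + 1) (vertical axis) against transcript length in bases (horizontal log axis) of 79 respiratory chain genes, coloured by complex. Black lines and grey boxes are the median and quartiles of other genes averaging 20 CPM or more in the same length band. The lines run from -0.18 to 0.00 at OHT 3D, from 0.30 to -0.10 at OHT 4D and from -0.89 to -0.19 at Tc 2D, and most members lie near them.

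The differences were larger after Oct4 depletion. At Tc 2D, 77 of 79 respiratory chain genes were lower than in WT, and their summed share of the reads on genes was 0.860%, against 1.12% in WT and 1.35% and 1.21% in the 2 ZHBTc4 control libraries. The median log2-fold-change against WT was -0.62, against -0.06 over all genes. There were 44 members called lower (18 of complex I, 3 of II, 6 of III, 8 of IV and 9 of V) and 0 called higher. Scaling to the total reads on genes left 20 called lower and 2 higher, with a median of -0.30 beside 0.25 over all genes. The share of all genes called with that scaling was not computed. On the deposited scale, which gave the 44, 25.8% of all genes were called lower and 23.9% higher. There, 46.2% of all genes with transcripts under 1000 bases, the class of 56 of the 86 members, were called lower. Of non-member genes averaging 20 CPM or more, 83.3% under 500 bases and 75.7% of 500 to 700 bases were called lower. At 700 to 1000 bases it was 51.0%. Of the members in these bands it was 80%, 61.5% and 46.2%. At 1000 to 1500, 1500 to 2500 and 2500 to 5000 bases, 40.7%, 35.9% and 27.0% of those non-members were called lower. Of members there it was 46.7%, 36.4% and 75% (3 of 4). Of genes averaging 50 CPM or more, 37.6% were called lower. The medians were -0.56 (complex I), -0.74 (II), -1.14 (III), -0.72 (IV) and -0.65 (V). Tc 2D was 1 library, so no test was made.

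The ZHBTc4 control libraries are of the same line as Tc 2D, although they carried a control lentivirus. The paper also lists another sequencer model for the shRNA libraries than for WT and Tc 2D. Loss of Oct4, infection and sequencer therefore cannot be told apart in this comparison. The control libraries were brought onto 1 scale with Tc 2D by TMM over all 8 libraries. Against their mean, 52 of 81 members were called lower and 2 higher (all genes, 23.9% lower and 24.9% higher), with a median of -0.81 against 0.01 over all genes. Cox4i2 and Cox7b2 passed the filter here only through the controls, so their fall was fixed in advance. Both are among the 52 and enter the median of complex IV. At a minimum of 5 CPM, 50 members were called lower and 1 higher, with a median of -0.80. The share of all genes called at that minimum was not computed. Scaling to total reads gave 30 lower and 5 higher against the controls, with medians of -0.36 for members and 0.44 for all genes. The share of all genes called with that scaling was not computed. The medians of complexes III, IV and V were -1.38, -1.18 and -1.21, and those of I and II were -0.50 and -0.79. The 3 reference libraries differ among themselves, since the controls were above WT by a median of 0.44 in complex V and 0.38 in complex IV and were level with it in complex I (0.00). On the joint scale 71 of the 79 members (89.9%) were lower at Tc 2D than in WT and in both controls, as were 37.8% of all genes and 76.9% of non-member genes under 1000 bases that averaged 20 CPM or more. In all, 36 of the 79 were called lower against both references (45.6%), as were 16.7% of all genes and 50.6% of those short ones.

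In complex III, Uqcrfs1, which carries electrons from ubiquinol to cytochrome c1, was at 97.4 CPM in WT, 91.8 and 116 on days 3 and 4 of OHT and 24.2 CPM with Tc. The log2-fold-change of the last was -1.97 (95% counting interval -2.09 to -1.85). On the joint scale it was at 112 and 101 CPM in the controls and 30.04 at Tc 2D, a log2-fold-change of -1.79. Uqcrh was at 91.4, 85.8, 112 and 29.1 CPM (-1.62), and on the joint scale at 184 and 189 CPM in the controls and 36.2 at Tc 2D (-2.33). Of the core proteins, Uqcrc1 was at 262 CPM in WT and 180 at Tc 2D (-0.53, and -0.70 against the controls), and Uqcrc2 at 200.3 and 134 CPM (-0.58, and -0.63 against the controls).

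In complex IV, the ubiquitous form Cox7a2 was at 75.7 CPM in WT, 66.0 and 99.1 on days 3 and 4 of OHT and 15.3 CPM with Tc, a log2-fold-change of -2.24 (95% counting interval -2.38 to -2.09). On the joint scale it was at 111 and 115 CPM in the controls and 19.0 at Tc 2D (-2.52). The related Cox7a2l, known for its part in supercomplexes of complexes III and IV, was at 153, 114, 161 and 30.9 CPM (-2.27, interval -2.38 to -2.17), the largest fall in value among the members against WT. Its joint level in the controls, 88.7 and 88.6 CPM, was below that in WT (189 CPM), and the log2-fold-change against them was -1.19. Cox7b was at 159 CPM in WT and 50.6 at Tc 2D, and Cox7c at 96.0 and 32.5 CPM. The tissue form Cox7a1 was at 5.10 CPM in WT and 4.58 at Tc 2D. Cox4i1, the subunit with the highest CPM per kb of the complex, was at 279 and 189 CPM (-0.56, and -0.93 against the controls). The pair Cox5a and Cox5b stood at 75.7 and 105 CPM in WT and 53.6 and 84.2 CPM at Tc 2D (-0.49 and -0.32, and -1.27 and -0.81 against the controls), and about 38.7% of the exon length of Cox5a overlaps another gene.

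In complex V, the epsilon subunit Atp5e of the central stalk was at 40.4 CPM in WT, 34.2 and 53.5 on days 3 and 4 of OHT and 8.95 CPM with Tc, a log2-fold-change of -2.06 (95% counting interval -2.24 to -1.87). The membrane subunit Atp5k, which is known from dimers of the enzyme, was at 39.3, 35.1, 50.6 and 11.6 CPM (-1.68). Both also spread widely between the controls, which were at 80.7 and 50.4 CPM for Atp5e and 106 and 74.5 CPM for Atp5k on the joint scale, with Tc 2D at 11.1 and 14.4 CPM below both. Of the catalytic pair, Atp5a1 was at 1013 CPM in WT and 542 at Tc 2D (-0.90, and -1.33 against the controls) and Atp5b at 1240 and 840 CPM (-0.56, and -1.26 against the controls, past the limit). The c subunit genes had log2-fold-changes against WT of -0.51 (Atp5g1), -0.76 (Atp5g2) and -0.95 (Atp5g3), and against the controls of -1.32, -0.86 and -1.73. Atp5g2 has 3 near-identical copies elsewhere in the genome, so its reads can align to several places, and how these were counted was not checked. Of the 86 members, 16 have such a copy.

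All 4 genes of complex II, which is encoded by the nucleus alone, were lower at Tc 2D than in WT and both controls. Sdhd was at 126 CPM in WT and 58.3 at Tc 2D (-1.10), Sdhc at 84.3 and 45.6 (-0.87), Sdha at 310 and 204 (-0.60) and Sdhb at 85.6 and 61.5 CPM (-0.47), the last not past the limit. On the joint scale Sdhc was at 188 and 143 CPM in the controls and 56.7 at Tc 2D (-1.51), and Sdhb at 123, 103 and 76.4 CPM (-0.55). In complex I the largest difference was that of the accessory subunit Ndufb3, with 39.9 CPM in WT and 12.3 at Tc 2D (-1.62). Its joint level was 73.5 and 63.0 CPM in the controls and 15.3 at Tc 2D (-2.08). The members that were higher at Tc 2D than in WT were both in complex I: Ndufab1, the mitochondrial acyl carrier protein, was at 61.1 and 76.4 CPM (0.32) and Ndufb2 at 1.48 and 2.502 CPM (0.50). The 2 members called higher against the controls were Ndufb2 (0.76) and Atp5s (0.68), both at low levels. On the joint scale Ndufb2 was at 1.14 and 1.74 CPM in the controls and 3.11 at Tc 2D. Atp5s was at 4.43 and 4.57 CPM in the controls and 7.80 at Tc 2D, which was below WT (11.3 CPM).

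**Figure D3:**
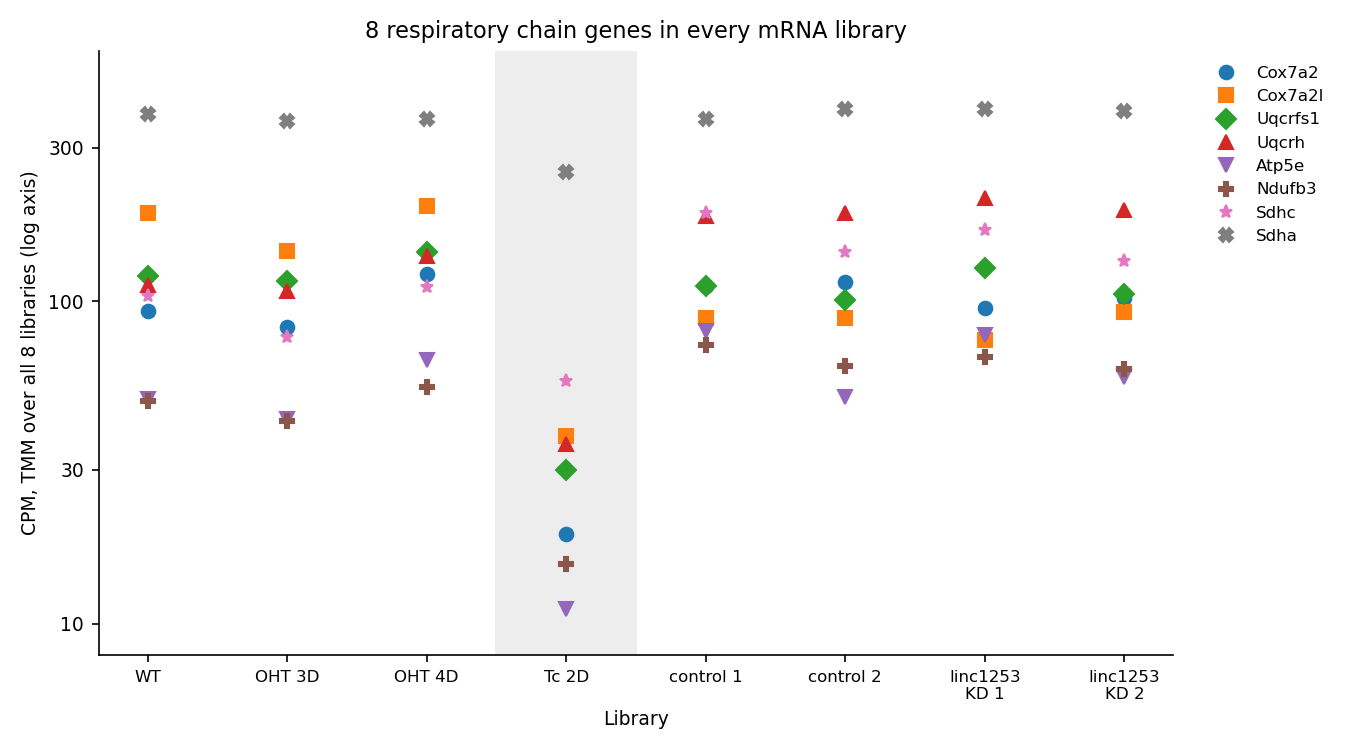
Level in CPM after TMM over all 8 libraries (vertical log axis) of 8 respiratory chain genes in each mRNA library (horizontal axis); KD is knockdown and the Tc 2D library is shaded. All 8 genes were lowest at Tc 2D, from 11.1 CPM for Atp5e to 253 CPM for Sdha.

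Transcript length moved with the result at Tc 2D as well. Among non-member genes averaging 20 CPM or more, the median log2-fold-change against WT was -0.89 for transcripts under 500 bases, -0.84 for 500 to 700 bases, -0.47 for 1000 to 1500 bases and -0.19 for 2500 to 5000 bases. Relative to non-member genes in the same length band the members' median was -0.01 against WT and -0.04 against the controls, and 41 of 79 and 42 of 81 lay below their band. The members went both ways by length. Against the controls, the 27 members of 500 to 700 bases had a median of -0.87 beside -1.23 for other genes of that length, and the 11 of 1500 to 2500 bases had -0.63 beside -0.19. The part of transcript length was not tested. There were 12 members that lay more than 0.58 below their band against WT, and 11 of them did so against the controls too. They were 14.7% of the 75 members averaging 20 CPM or more, and of non-member genes at that level 11.8% lay as far below their band against both references, so the members' share was near the background. The 11 were Ndufb3 of complex I, Sdhc and Sdhd of complex II, Uqcrfs1 and Uqcrh of complex III, Cox7a2l, Cox7a2, Cox7b and Cox7c of complex IV and Atp5e and Atp5k of complex V. Relative to its band Cox7a2 stood at -1.65 and -1.91, Uqcrfs1 at -1.50 and -1.43 and Cox7a2l at -1.80 and -0.83. Ndufs5, the twelfth, stood at -0.75 against WT and 0.36 against the controls. Sdha, by contrast, stood at -0.42 and -0.54 and Sdhb at 0.00 and -0.20. The 3 members more than 0.58 above their band against WT were Ndufb2, Ndufab1 and Cox7a1, and against the controls 20 members lay as far below their band and 13 as far above it. Of the non-member genes averaging 20 CPM or more, 18.0% lay as far below and 18.2% as far above their band against WT, and 18.8% and 18.6% against the controls. Of the 75 members at the same level, 16.0% and 1.33% did so against WT and 26.7% and 13.3% against the controls. The 13 members above included Ndufb2, Ndufab1 and Cox7a1 and were of complexes I (8), IV (3) and V (2). This comparison with other genes of the same length was chosen after the data were seen.

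The cells at Tc 2D also differed in their markers. Of 10 ES cell markers 9 were called lower (median -3.13) and 7 of 7 trophectoderm markers higher (median 3.08, sums of 51.7 CPM in WT and 449 at Tc 2D). Of 8 primitive endoderm markers 5 were called higher, with sums of 197 and 484 CPM, and an additional ID of Dab2 was at 0 in all 8 libraries. Of 10 fibroblast markers 5 were called lower and 2 higher, the latter being Pdgfrb (0.715 and 25.1 CPM) and Col5a1 (7.29 and 17.1 CPM). The list summed to 825 CPM in WT and 565 at Tc 2D, or to 31.6 and 49.8 CPM without Fn1. At Tc 2D Acta2, Dcn, Lum, Postn and S100a4 were at 0, of which Lum was also at 0 in WT. Their part in the result was not tested.

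Other genes of the pathway were taken from lists by name. Of the 13 subunits encoded by mitochondrial DNA 12 passed. Their median log2-fold-change against WT was 0.10 and 0.28 on days 3 and 4 of OHT and -0.01 with Tc. At OHT 4D 12 of 12 were higher than in WT, as were 74 of 79 nuclear-encoded genes, whose medians were -0.19, 0.29 and -0.62. At Tc 2D 3 were called higher (25%, beside 23.9% of all genes), namely mt-Nd4 at 1.22, mt-Cytb at 1.07 and mt-Co2 at 0.63, and 1 lower (mt-Nd1 at -0.97). Against the ZHBTc4 controls, however, 8 of the 12 were called lower (66.7%, beside 23.9% of all genes) and 0 higher, with a median of -1.13. The controls were above WT by a median of 1.10 for these genes and differed between themselves by 0.45. Polyadenylated RNA was sequenced, and the reads of such genes need not follow those of nuclear genes.

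Assembly factors, which put the complexes together without being part of them, were lower at Tc 2D against WT for 20 of 27, with 10 called lower (37%, beside 25.8% of all genes), 2 higher and a median of -0.41. They included the copper chaperone Sco1 (-1.13, and -0.67 against the controls), the succinate dehydrogenase factor Sdhaf1 (-1.07 and -0.62) and the complex I factor Ndufaf1 (-1.03 and -0.67). Those called higher against WT, Tmem70, which serves complex V (0.82), and Ttc19, which serves complex III (0.70), stood at 0.02 and 0.52 against the controls and were not called there. Against the controls the list's median was -0.06, with 8 called lower (29.6%, beside 23.9% of all genes) and 2 higher. Mitochondrial ribosomal proteins had medians of -0.12, 0.22 and -0.41 at OHT 3D, OHT 4D and Tc 2D, and 23 of 75 were called lower at Tc 2D (30.7%, beside 25.8% of all genes), led by Mrpl36 (-2.47, and -2.11 against the controls), Mrpl50 (-2.45 and -2.02) and Mrpl34 (-1.57 and -1.87). Of 16 genes of the tricarboxylic acid cycle 7 were called lower (43.8%) and 0 higher at Tc 2D (median -0.42), led by Sucla2 (-1.38, and -0.74 against the controls), Pdhb (-1.12 and -0.66) and Idh3g (-1.11 and -0.73). Against the controls 7 of the 16 were also called lower (43.8%, beside 23.9% of all genes) and 0 higher, with a median of -0.50. At both OHT times 0 of the 16 were called. The electron carrier Cycs, cytochrome c, was at 94.9 CPM in WT, 101 and 125 on days 3 and 4 of OHT and 50.4 CPM with Tc (-0.90, and -1.55 against the controls).

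Of 15 regulators of mitochondrial biogenesis that passed, 5 were called lower (33.3%, beside 25.8% of all genes) and 1 higher at Tc 2D (6.67%, beside 23.9%). Against the controls 7 were called lower (46.7%, beside 23.9% of all genes) and 1 higher (6.67%, beside 24.9%). Esrrb, an estrogen-related receptor that is also part of the ES cell network, was at 565 CPM in WT, 609 and 601 on days 3 and 4 of OHT and 60.9 CPM with Tc (-3.19, and -3.31 against the controls). Esrra, another such receptor, was at 21.2 CPM in WT and 20.7 at Tc 2D (-0.03, and 0.45 against the controls). Lrpprc, which stabilizes mitochondrial mRNA, was at 211 and 76.0 CPM (-1.46, and -0.72 against the controls) and the coactivator Pprc1 at 251 and 117 CPM (-1.09 and -0.67). The coactivator Ppargc1b was the one called higher, with 4.87 and 13.9 CPM (1.34 and 1.32). Nrf1 was at 89.9 CPM in WT and 47.7 at Tc 2D (-0.90 and -0.87), and Gabpa at 134 and 122 CPM (-0.14 and -0.50). As a description, the 8 members with an ERR motif in their promoter had a median log2-fold-change at Tc 2D of -1.03 and the 57 without one -0.62, while the 20 with an NRF1 motif had -0.63 and the 45 without one -0.67. With and without an ETS motif the medians were -0.79 (16) and -0.62 (49), and with and without a YY1 motif -0.65 (9) and -0.66 (56). Transcript length was not taken into account there.

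The last comparison asked what knockdown of linc1253 changes in ZHBTc4 cells. By limma with Benjamini-Hochberg adjustment, 0 of 81 respiratory chain genes passed an adjusted p of 0.05, and neither did any of the 13407 genes tested (0%). At an unadjusted p under 0.05 the limma test had 2 members lower and 0 higher, where 3.75% of all genes were lower and 3.7% higher. The edgeR test called 0 genes, and DESeq2 called 22 genes higher and 28 lower, of which 0 were members. The members' median log2-fold-change was -0.07 against 0.00 over all genes, and 61 of 81 were lower. The medians by complex were -0.04 (I), -0.06 (II), -0.03 (III), -0.12 (IV) and -0.05 (V), and in complex IV all 15 genes tested were lower. In 20 of 81 both knockdown libraries lay below both controls and in 5 above both, against 19.2% and 18.8% of all genes.

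The members summed to 13253 and 12263 CPM in the controls and to 12614 and 11787 CPM in the knockdown libraries, so the groups overlapped. Each knockdown sum was nevertheless below that of the control carrying its number. Over the members, deviations of libraries that share a number had a correlation of 0.71. When limma also took in these numbers, 10 members were lower and 0 higher at an adjusted p of 0.05, beside 7.66% of all genes lower. The labels do not state that such libraries are pairs, so that fit was not the main one. Control replicate 2 was below control replicate 1 for 58 of 81 members, with a median of -0.14, and knockdown replicate 2 was below knockdown replicate 1 for 62. Without control replicate 1 the median turned to 0.01, and without the other libraries in turn it lay between -0.15 and -0.02. Fibroblast markers without Fn1 summed to 86.1 and 73.6 CPM in the controls and 85.5 and 110 CPM in the knockdown libraries. Primitive endoderm markers summed to 181 and 212 CPM in the controls and 183 and 257 CPM in the knockdown libraries. Their part in the result was not tested. The labels do not say whether the replicates were separate cultures, so the p values measure the spread between these libraries only.

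The smallest p values among members were those of Ndufa7, Atp5g1 and Cox7a2. Ndufa7, an accessory subunit of complex I, was at 87.0 and 74.8 CPM in the controls and 67.2 and 63.1 CPM in the knockdown, a log2-fold-change of -0.31 ± 0.11 (SE, limma adjusted p = 0.632). Atp5g1 was at 165 and 148 CPM in the controls and 127 and 134 CPM in the knockdown, -0.26 ± 0.10 (SE, limma adjusted p = 0.640). Cox7a2 was at 103 and 105 CPM in the controls and 87.0 and 93.3 CPM in the knockdown, -0.21 ± 0.09 (SE, limma adjusted p = 0.670). In all 3 the groups did not overlap, but the differences did not pass the adjusted limma test that leaves replicate number out. In the upward direction the smallest p values belonged to Atp5sl (0.12, limma adjusted p = 0.815), Ndufb2 (0.20, limma adjusted p = 0.827) and Uqcrh (0.09, limma adjusted p = 0.837).

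**Figure D4:**
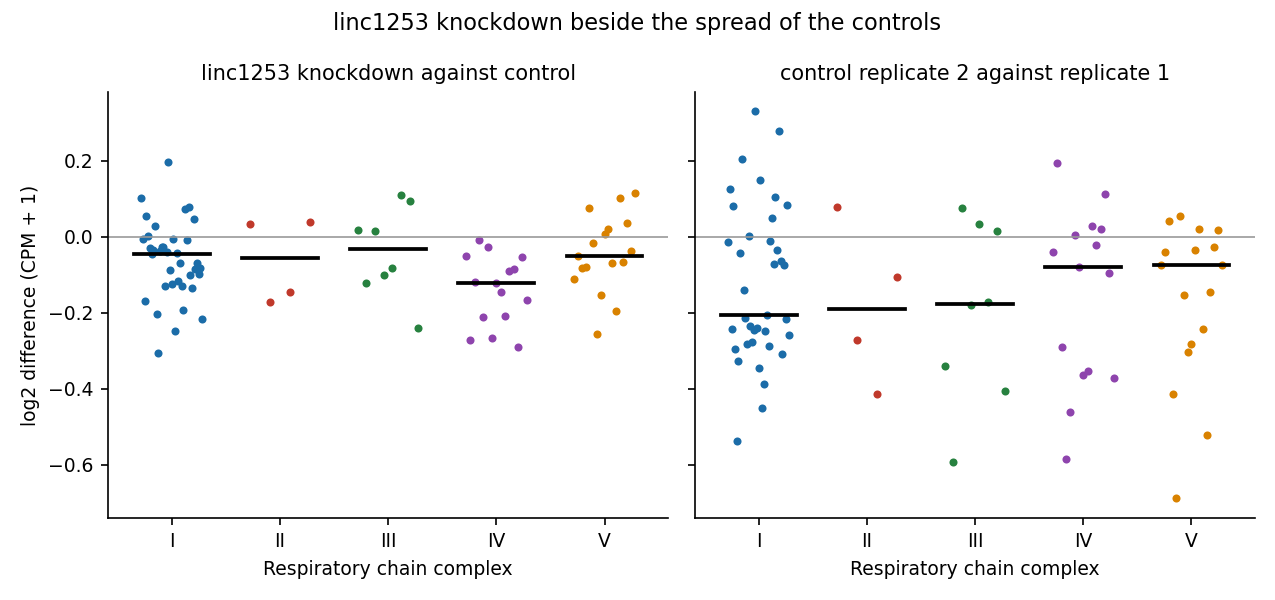
Log2 difference on log2(CPM + 1) (vertical axis) of 81 respiratory chain genes (points) by complex (horizontal axis), for the mean of 2 linc1253 knockdown libraries against 2 controls (left) and for control replicate 2 against control replicate 1 (right). Black bars are medians of a complex, and the median over all members is -0.07 on the left and -0.14 on the right. Means of 2 libraries are compared on the left and single libraries on the right, so the widths of the 2 clouds are not comparable.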

How the data were processed

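The authors trimmed reads with cutadapt, used TopHat for alignment to NCBIM37 and HTSeq for gene counts, and deposited TMM-normalized CPM from edgeR. WT, OHT and Tc libraries form 1 table and the shRNA libraries another, normalized separately. All values (100%) were whole reads times 1 step per library within 0.01 read. Each line of the deposited ChIP-seq files is 1 Bowtie2-aligned read with its mapping quality score.

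Symbols came from the Ensembl annotation of NCBIM37 (22337 of 22713 IDs). Members, lists and named-gene rules were chosen with earlier results of these data known. Named were the complex II genes, paralogues, extremes of level per kb, called members (the 5 largest each way where many) and the 3 smallest p each way for linc1253. WT, OHT and Tc comparisons used genes above 1 CPM in 1 of the 4 libraries, a pseudocount of 1 and a limit of 0.58 on log2(CPM + 1), so a fold change understates that of low genes. Their error is counting error only. linc1253 knockdown was tested by limma 3.58.1 with trend (2 against 2, Benjamini-Hochberg), and by edgeR 4.0.16 and DESeq2 1.42.0 on the recovered reads. Near-identical copies (98% identity over 100 bases) were found with minimap2 2.31. limma, edgeR and DESeq2 were also run on simulated counts with known changes. No protein sequences were analysed here.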

Additional observations from a re-analysis of the deposited data

Results flagged for a closer look

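The respiratory chain genes lay on opposite sides of WT at the 2 times after OHT. The median log2-fold-change of all members was -0.187 at OHT 3D and 0.286 at OHT 4D. It was -0.208 and 0.270 in complex I, -0.278 and 0.135 in complex II, -0.129 and 0.299 in complex III, -0.190 and 0.280 in complex IV and -0.133 and 0.307 in complex V. With 1 library per time the difference between the times was not tested. Non-member genes with transcripts under 500 bases had medians of -0.18 and 0.30 at the same times.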

How the results depend on the processing

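Of 166 values recomputed under alternatives, 132 stayed close to the reported ones, 34 moved and 0 medians of Pontin or Oct4 depletion changed sign. Relative to other genes of the same transcript length, an alternative chosen after seeing the data, the medians became -0.061 at OHT 3D, 0.044 at OHT 4D, -0.014 at Tc 2D against WT and -0.043 against the ZHBTc4 controls, and the calls became 1 lower (OHT 3D), 1 lower and 1 higher (OHT 4D), 12 lower and 3 higher (WT) and 20 lower and 13 higher (controls). With scaling to total reads on genes the median of all genes at Tc 2D moved to 0.25 against WT and 0.44 against the controls. The members' medians became -0.304 and -0.361, with 20 lower and 2 higher and 30 lower and 5 higher, and 2 were called higher at OHT 4D. The distance of the members' median from that of all genes stayed at -0.56 and -0.80. Median-ratio scaling gave 1 member higher at OHT 4D and 1 at Tc 2D. At a limit of 1, the members called lower numbered 0 at OHT 3D, 0 at OHT 4D, 16 at Tc 2D against WT and 30 against the controls, with 0 higher there. The share of all genes called at this limit, with the other scalings, or at the other pseudocounts and minimum CPM was not computed. Counts at these settings therefore stand without a background. A pseudocount of 0.5 gave 1 higher at Tc 2D against WT, a pseudocount of 3 gave 0 higher and a minimum of 5 CPM gave 1 higher against the controls. Without Atp5s, Atp5sl and members whose exons overlap another gene by over 10%, an alternative also added later, the counts were 1 lower at OHT 3D, 0 lower at OHT 4D and 1 higher against the controls. The ChIP ratio was 0.706 for 1 kb either side of the start, 0.138 after median-ratio scaling and 0.270 for promoters with at least 20 GFP reads.

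For linc1253 knockdown, leaving out each library gave 0 members called and medians from -0.152 to 0.009. With replicate number as a block, 10 members were called lower by limma, where 7.66% of all genes were lower. Same-numbered libraries deviated together (correlation 0.673 over all genes), but with 2 pairs that share only a number they were not treated as paired. DESeq2 gave no adjusted p for 5 members. The causes of these differences were not tested. With 1 library per condition, depth bounds counting error only.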
